A study of Mus musculus with 9 samples.

Results

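The 10 genes described here make, sense and inactivate prostaglandins, and they were taken by symbol from a gene table of 43346 rows. They are the cyclooxygenases Ptgs1 and Ptgs2, the terminal synthases Ptges, Ptgis and Ptgds, the receptors Ptger2, Ptger3, Ptger4 and Ptgfr, and the inactivating enzyme Hpgd. RNA was sequenced from lung fibroblasts of 9 aged male Col1a1-GFP mice of FVB background, with 1 library per mouse. The age is given both as 18 months and as 72 weeks. The 4 aged sham mice had received saline through the trachea and the 5 aged bleo mice bleomycin, a drug that injures the lung epithelium and leads to fibrosis, each as 1 dose, and lungs were taken on day 30. All mice carried the Col1a1-GFP transgene, and cells positive for GFP and negative for CD45, CD31 and EpCAM were sorted after enzymatic digestion of the lung. The gate therefore rests on the promoter of a collagen gene that itself was higher in aged bleo, at 4150.5 CPM (read counts scaled to the TMM-normalized library size) in aged sham against 20833 CPM in aged bleo (means, n = 4 and 5). In such bulk samples, fewer cells of a type and less RNA per cell cannot be told apart. The labels do not say that libraries were prepared or sequenced on different days.

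Prostaglandins are short-range lipid signals. A phospholipase frees arachidonic acid from the membrane, a cyclooxygenase turns it into prostaglandin H2, and a terminal synthase turns that into prostaglandin E2 (Ptges), prostacyclin (Ptgis) or prostaglandin D2 (Ptgds). Ptgs1 is the constitutive cyclooxygenase of most tissues, and Ptgs2 the inducible one, which behaves as an immediate early gene. Prostaglandin E2 acts on a family of G protein-coupled receptors, of which those encoded by Ptger2 and Ptger4 raise cyclic AMP and that encoded by Ptger3 mostly lowers it, whereas Ptgfr encodes the receptor for prostaglandin F2alpha, which signals mainly through calcium. Hpgd encodes the dehydrogenase that starts the breakdown of prostaglandins. In the lung, prostaglandin E2 is known to hold back fibroblast proliferation and collagen synthesis, and prostaglandin F2alpha is known to favour both.

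The promoters of 4 of these genes are shown first. These genes were picked by their level or change, and no motif was tested. Ptgs2 was the most abundant of the 10 and fell, and Ptgfr had the largest fall. Ptger2 and Ptger3 were the members that rose past both test thresholds given below. RefSeq promoter sequence (build GRCm38.p6) was found for 9 of the 10 genes. Each line below runs 5′ to 3′ on the gene's own strand from 250 bases before to 30 bases after the RefSeq start, and capitals mark matches, on either strand, to the TATA box (TATAAA), the E-box (CACGTG), the cyclic AMP response element core (TGACG), the AP-1 site (TGANTCA), the NFAT core (GGAAAA), the GC box (GGGCGG), the CCAAT box (CCAAT) and the NF-kappaB site. The windows are chr1:150099781-150100060 on the plus strand for Ptgs2, chr14:44987861-44988140 on the plus strand for Ptger2, chr3:157566626-157566905 on the plus strand for Ptger3 and chr3:151837499-151837778 on the minus strand for Ptgfr.
Ptgs2: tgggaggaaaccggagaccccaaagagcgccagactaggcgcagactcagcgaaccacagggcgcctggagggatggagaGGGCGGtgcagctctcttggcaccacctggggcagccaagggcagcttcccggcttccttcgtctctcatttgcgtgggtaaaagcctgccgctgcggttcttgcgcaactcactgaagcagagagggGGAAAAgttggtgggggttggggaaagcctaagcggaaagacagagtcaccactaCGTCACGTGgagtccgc
Ptger2: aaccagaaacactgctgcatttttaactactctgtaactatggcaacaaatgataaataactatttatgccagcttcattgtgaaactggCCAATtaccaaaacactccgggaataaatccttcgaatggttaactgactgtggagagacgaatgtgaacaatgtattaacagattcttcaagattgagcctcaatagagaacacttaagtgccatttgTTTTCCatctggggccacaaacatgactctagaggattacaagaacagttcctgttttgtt
Ptger3: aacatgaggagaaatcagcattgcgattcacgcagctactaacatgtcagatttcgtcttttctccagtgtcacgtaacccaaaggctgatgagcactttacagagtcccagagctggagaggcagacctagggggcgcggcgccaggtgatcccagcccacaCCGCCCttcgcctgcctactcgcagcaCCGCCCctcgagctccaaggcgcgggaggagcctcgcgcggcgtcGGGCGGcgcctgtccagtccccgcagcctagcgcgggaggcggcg
Ptgfr: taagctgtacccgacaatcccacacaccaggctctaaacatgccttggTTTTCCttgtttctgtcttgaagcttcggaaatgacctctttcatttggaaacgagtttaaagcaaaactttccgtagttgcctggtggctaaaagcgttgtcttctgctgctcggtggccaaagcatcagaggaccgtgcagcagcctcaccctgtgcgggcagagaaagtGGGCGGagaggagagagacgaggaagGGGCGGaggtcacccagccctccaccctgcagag

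The windows differed in composition, with 61.4% G and C in Ptgs2, 63.9% in Ptger3, 53.9% in Ptgfr and 37.9% in Ptger2. Ptgs2 held a GC box at -170, an NFAT core at -42 and, at +14 and +17, a cyclic AMP response element core on the reverse strand that overlaps an E-box. Ptger2 held a CCAAT box at -160 and an NFAT core on the reverse strand at -31, and no GC box. Ptger3 held GC boxes at -87, -60 and -15, and Ptgfr held an NFAT core on the reverse strand at -202 and GC boxes at -30 and -4. Ptger2 and Ptger3 shared none of these motifs with each other. Among 32544 RefSeq promoter windows reaching 250 bases before and 50 after the start, an E-box occurred in 7.17%, a cyclic AMP response element core in 20.9%, an NFAT core in 23.3%, a GC box in 35.9% and a CCAAT box in 37.4%. Of the 9 members' windows, 6 held a GC box, 5 an NFAT core and 2 a CCAAT box. Each other marked motif was found in 1. The short SMAD core (CAGAC), found in 49.5% of all windows and in 7 of these 9, was searched too and is not marked. A match only says that these letters are present. The RefSeq start lies before the start of the gene in the deposited table for Ptger2 and Ptger3, and inside the gene for Ptgfr.

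Of the 10 genes, 9 had the average count of at least 25 that was required for testing, and Ptgds did not. In edgeR's quasi-likelihood test, with calls made at a false discovery rate (FDR) under 0.10 over all 16877 genes tested and a fold change over 1.5, Ptger2 and Ptger3 rose in aged bleo and Ptgs2, Ptgis, Ptgfr and Hpgd fell. The count was thus 2 higher and 4 lower of 9, where 12.3% of all genes tested were called higher and 11.5% lower. The groups did not overlap in 2 members with aged bleo higher and in 4 with aged bleo lower, against 16.1% of all genes in each direction and 32.2% in either. All 9 passed the FDR threshold alone, 4 of them higher and 5 lower, as did 23.4% and 21.4% of all genes tested and 44.8% in either direction. Ptges no longer passed it under 4 alternatives (FDR up to 0.145), Ptgis under 4 (up to 0.129) and Ptger4 under 10 (up to 0.204). The median log2 fold change of the 9 members was -0.36, and that of all genes tested was 0.01.

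**Figure D1:**
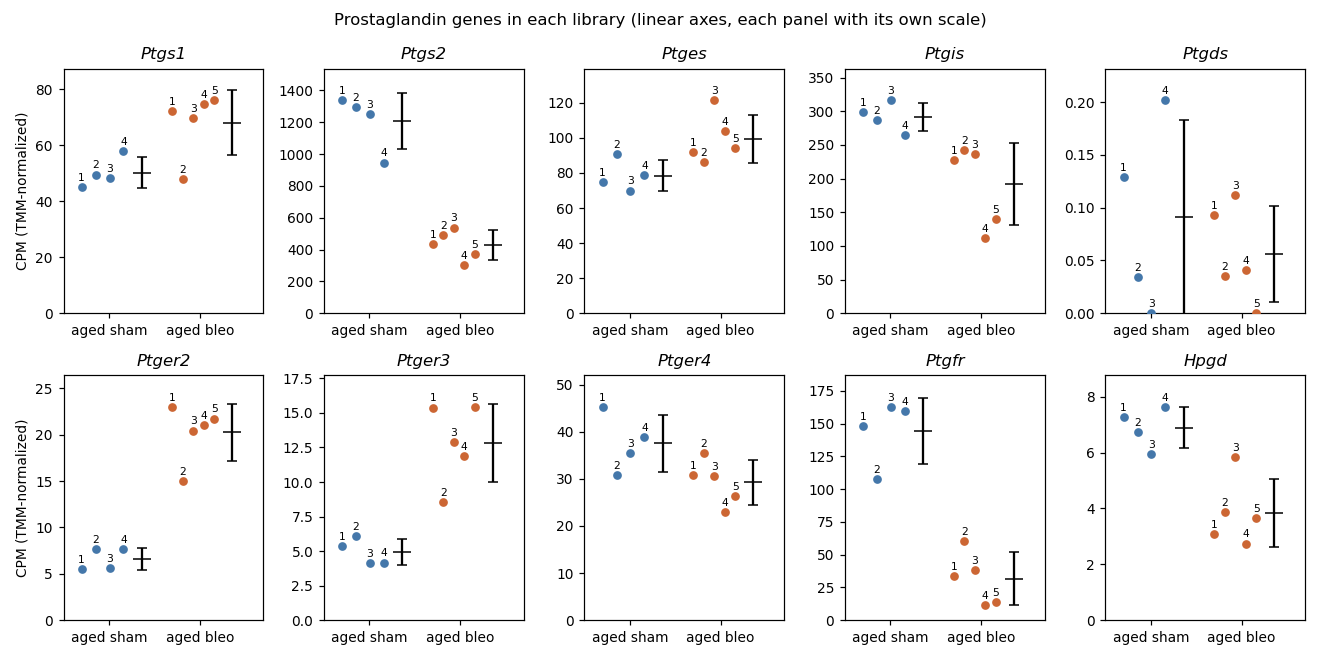
Level of each of the 10 genes in each library, in TMM-normalized CPM on linear axes that start at 0 and differ between panels. Numbered points are single mice (4 aged sham, 5 aged bleo), and the bar beside them is the mean ± SD. For Ptgs2, Ptgis, Ptgfr, Hpgd, Ptger2 and Ptger3 the groups do not overlap.

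Ptgs2 (ENSMUSG00000032487, chromosome 1, 150100031 to 150108227, mm10) was at 1337, 1295.5, 1249 and 947 CPM in aged sham 1 to 4 and at 433, 489, 539, 302 and 375 CPM in aged bleo 1 to 5. Each aged bleo library was below each aged sham library, and aged sham 4 and aged bleo 4 were the lowest of their groups. The mean fell 2.82-fold, from 1207 ± 177 CPM (SD, n = 4) to 427 ± 93.1 CPM (SD, n = 5), for a log2 fold change of -1.5 (standard error 0.18, FDR 0.000478). The call was the same under each of 21 alternative analyses, over which the log2 fold change ranged from -1.60 to -1.40. Another alternative, a term for the last number of the library name, is left out of these ranges because it compares aged bleo 4 alone with aged sham. Ptgs2os is a neighbouring transcript on the opposite strand that starts inside the Ptgs2 window printed above, with 67 bases between the genes. It fell as well (log2 fold change -2.0, standard error 0.23, FDR 0.000411). Its levels of 1.504 to 2.24 CPM in aged sham and of 0.373 to 0.692 CPM in aged bleo did not overlap. These neighbours do not overlap, so reads within them are told apart by position. Reads past either annotated start could not be assigned by strand, since the RNA kit does not mark it.

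Immediate early genes, which cells switch on within minutes of a stimulus including tissue digestion, fell along with Ptgs2. All 8 of a list of Fos, Fosb, Jun, Junb, Egr1, Ier2, Atf3 and Nr4a1 were lower in aged bleo, with log2 fold changes from -2.17 for Atf3 to -0.70 for Jun. Their summed level was 14353 to 19463 CPM in aged sham and 5465 to 11891.5 CPM in aged bleo, with aged bleo 4 and aged bleo 5 lowest, the same libraries in which Ptgs2 was lowest. The part of the immediate early response in the lower Ptgs2 was not tested.

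**Figure D2:**
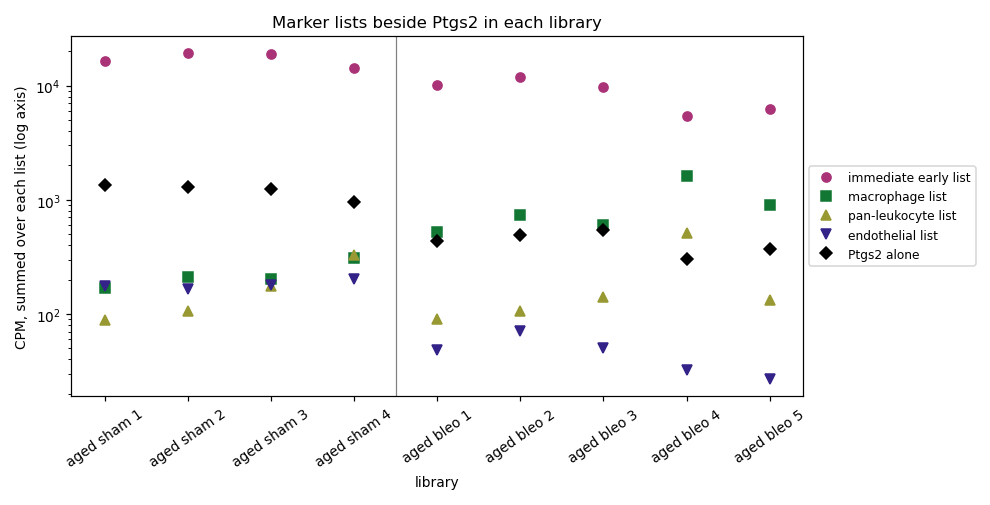
Ptgs2 (black diamonds) and the summed level of 4 marker gene lists in each library, in CPM on a log axis. The immediate early list lies between 14353 and 19463 CPM in aged sham and between 5465 and 11891.5 CPM in aged bleo, and it is lowest in aged bleo 4 and aged bleo 5, as is Ptgs2. The macrophage list lies above its aged sham values in all 5 aged bleo libraries.

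Ptgs1 (ENSMUSG00000047250, chromosome 2, 36230426 to 36252272) was at 45.1, 49.5, 48.2 and 57.9 CPM in aged sham and at 72.1, 47.9, 69.5, 74.8 and 75.9 CPM in aged bleo. In 4 of the 5 aged bleo libraries it was above all aged sham libraries, and aged bleo 2 lay within the aged sham range. The mean was 50.2 ± 5.49 CPM (SD, n = 4) against 68.0 ± 11.5 CPM (SD, n = 5). The difference passed the FDR threshold and not the fold threshold (log2 fold change 0.44, standard error 0.14, FDR 0.0359).

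Per length, on the scale of the deposited FPKM (fragments per kilobase of transcript, scaled to library size), Ptgs2 stood at 111 ± 17.5 FPKM (SD, n = 4) in aged sham, the highest of the 10 genes and between rank 125 and rank 197 among all genes of a library. In aged bleo it stood at 39.99 ± 7.67 FPKM (SD, n = 5), between rank 323 and rank 701. Ptgs1 was at 5.42 ± 0.525 FPKM in aged sham and 7.56 ± 1.41 FPKM in aged bleo. The FPKM of Ptgs2 therefore exceeded that of Ptgs1 by 20.3-fold in aged sham (13.9-fold to 25.1-fold over the libraries) and by 5.29-fold in aged bleo (3.43-fold to 8.65-fold). As a log2 ratio this was 4.34 ± 0.38 (SD, n = 4) and 2.40 ± 0.53 (SD, n = 5), with no overlap, and no test was run on it. The cyclooxygenase sum was 116 ± 17.0 FPKM in aged sham and 47.5 ± 6.86 FPKM in aged bleo, of which Ptgs2 made up 95.2% and 83.6%.

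Among the terminal synthases, Ptgis (ENSMUSG00000017969, chromosome 2, 167191805 to 167240604) was at 298, 286, 316 and 265 CPM in aged sham and at 228, 243, 236, 112 and 140 CPM in aged bleo. Each aged bleo library was below each aged sham library, but aged bleo 1, 2 and 3 lay close under them and aged bleo 4 and 5 far lower. The mean fell from 291 ± 21.3 CPM (SD, n = 4) to 192 ± 61.2 CPM (SD, n = 5), a call near both thresholds (log2 fold change -0.60, standard error 0.23, FDR 0.0643). The call was lost without any 1 of 5 libraries. Without aged bleo 4 the log2 fold change was -0.47 (FDR 0.0577), without aged bleo 5 it was -0.51 (FDR 0.129), and without aged sham 1, 2 or 3 it was -0.59 (FDR 0.118), -0.61 (FDR 0.113) or -0.56 (FDR 0.129). The small noncoding genes 1110018N20Rik and Gm14291 overlap Ptgis, and neither passed the FDR threshold (0.128 and 0.108).

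Ptges (ENSMUSG00000050737, chromosome 2, 30889471 to 30929863) was at 74.8, 90.6, 70.0 and 78.6 CPM in aged sham and at 91.8, 86.2, 121, 104 and 94.0 CPM in aged bleo. The groups overlapped only through aged bleo 2, which was below aged sham 2. The means were 78.5 ± 8.83 CPM (SD, n = 4) and 99.5 ± 13.8 CPM (SD, n = 5), a difference that passed the FDR threshold and not the fold threshold (log2 fold change 0.34, standard error 0.12, FDR 0.045). On the FPKM scale Ptgis exceeded Ptges by 5.70-fold in aged sham and by 2.83-fold in aged bleo, where it ranged from 1.64-fold in aged bleo 4 to 4.32-fold in aged bleo 2. The sum of both was 56.1 ± 3.87 FPKM in aged sham and 42.8 ± 9.35 FPKM in aged bleo.

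Ptgds (ENSMUSG00000015090, chromosome 2, 25466709 to 25470046) was close to absent. Its raw counts were 8, 2, 0 and 10 in aged sham and 5, 2, 6, 3 and 0 in aged bleo, an average of 4 per library, so it was not tested. A count of 0 allows a level of up to 0.0409 to 0.0604 CPM, depending on the library, and this covers counting error only.

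The receptors moved in opposite directions. Ptger2 (ENSMUSG00000037759, chromosome 14, 44988195 to 45003820), which raises cyclic AMP, was at 5.47, 7.68, 5.66 and 7.64 CPM in aged sham and at 23.0, 15.02, 20.5, 21.1 and 21.7 CPM in aged bleo. The lowest aged bleo library, aged bleo 2, was still well above the highest aged sham library. The mean rose from 6.61 ± 1.21 CPM (SD, n = 4) to 20.2 ± 3.07 CPM (SD, n = 5), a 3.06-fold rise (log2 fold change 1.61, standard error 0.16, FDR 0.000184). Gm17173, an antisense gene that spans Ptger2, rose too (log2 fold change 1.91, standard error 0.24, FDR 0.000675), from 0.307 to 0.564 CPM in aged sham to 1.35 to 2.00 CPM in aged bleo. Gm17173 reaches beyond Ptger2 on both sides. Without strand, reads within the span of Ptger2 could not be assigned to either gene by strand. The part of Ptger2 reads in the level of Gm17173 was not tested.

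Ptger3 (ENSMUSG00000040016, chromosome 3, 157566892 to 157644758) was at 5.37, 6.07, 4.16 and 4.17 CPM in aged sham and at 15.4, 8.57, 12.9, 11.9 and 15.4 CPM in aged bleo. The groups were apart, and aged bleo 2 was again the nearest to aged sham. The mean rose from 4.94 ± 0.941 CPM (SD, n = 4) to 12.8 ± 2.84 CPM (SD, n = 5), a 2.59-fold rise (log2 fold change 1.37, standard error 0.20, FDR 0.00129). For both receptors the call held under all 21 alternatives, with log2 fold changes from 0.94 to 1.71 for Ptger2 and from 0.86 to 1.49 for Ptger3.

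Ptgfr (ENSMUSG00000028036, chromosome 3, 151798918 to 151837630) was at 148, 108, 162 and 160 CPM in aged sham and at 33.4, 60.6, 38.5, 11.8 and 13.9 CPM in aged bleo. All aged bleo libraries were below all aged sham libraries, but they differed among themselves, with aged bleo 2 highest and aged bleo 4 and 5 lowest. The mean fell from 144 ± 25.3 CPM (SD, n = 4) to 31.6 ± 20.0 CPM (SD, n = 5), a 4.56-fold fall (log2 fold change -2.19, standard error 0.44, FDR 0.00622), with a log2 fold change from -2.57 to -1.95 over the 21 alternatives. Tek, on the endothelial list because it encodes an angiopoietin receptor, had a like profile, at 149 to 179 CPM in aged sham and 9.50 to 55.7 CPM in aged bleo, and its lowest libraries were also aged bleo 4 and 5. Of the 6 tested genes of the endothelial list, Tek was called lower, Kdr was called higher (log2 fold change 0.61, FDR 0.05), and Pecam1 (-0.49), Vwf (-0.56), Cdh5 (-0.03) and Cldn5 (0.10) were not called. Without Tek, the list summed to 15.1 to 22.9 CPM in aged sham and to 14.4 to 23.1 CPM in aged bleo.

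Ptger4 (ENSMUSG00000039942, chromosome 15, 5206661 to 5244187), the other receptor of the set that raises cyclic AMP, was at 45.2, 30.7, 35.5 and 38.9 CPM in aged sham and at 30.7, 35.5, 30.6, 23.0 and 26.4 CPM in aged bleo. The groups overlapped. The means were 37.6 ± 6.07 CPM (SD, n = 4) and 29.2 ± 4.77 CPM (SD, n = 5), and the difference did not pass the fold threshold (log2 fold change -0.36, standard error 0.14, FDR 0.0773). The gene Ttc33 overlaps Ptger4, and its own level did not pass the test (log2 fold change 0.11, FDR 0.195).

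On the FPKM scale, the 4 receptors summed to 18.0 ± 2.29 FPKM (SD, n = 4) in aged sham and 9.97 ± 1.56 FPKM (SD, n = 5) in aged bleo, without overlap. Ptgfr made up 76.8% of that sum in aged sham (72.0% to 80.8%) and 29.3% in aged bleo (15.4% to 50.7%). Ptger2 made up 4.30% and 24.6%, Ptger3 5.66% and 27.1%, and Ptger4 13.2% and 19.0%. Receptors outside the 10 genes were not in this sum. Ptger1 had means of 5.04 FPKM in aged sham and 6.41 FPKM in aged bleo, Ptgir 4.77 and 3.75, and Tbxa2r 2.29 and 1.63. In the FPKM order of all 10 genes, aged sham ran Ptgs2, Ptgis, Ptgfr, Ptges, Ptgs1, Ptger4, Hpgd, Ptger3, Ptger2, Ptgds, and only the ranges of the neighbours Ptger3 and Ptger2 overlapped. In aged bleo the order was Ptgs2, Ptgis, Ptges, Ptgs1, Ptgfr, Ptger3, Ptger2, Ptger4, Hpgd, Ptgds. There the range of Ptgs2 overlapped that of Ptgis, and each neighbouring pair from Ptgs1 to Ptger4 overlapped, so the order of the receptors was not resolved.

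**Figure D3:**
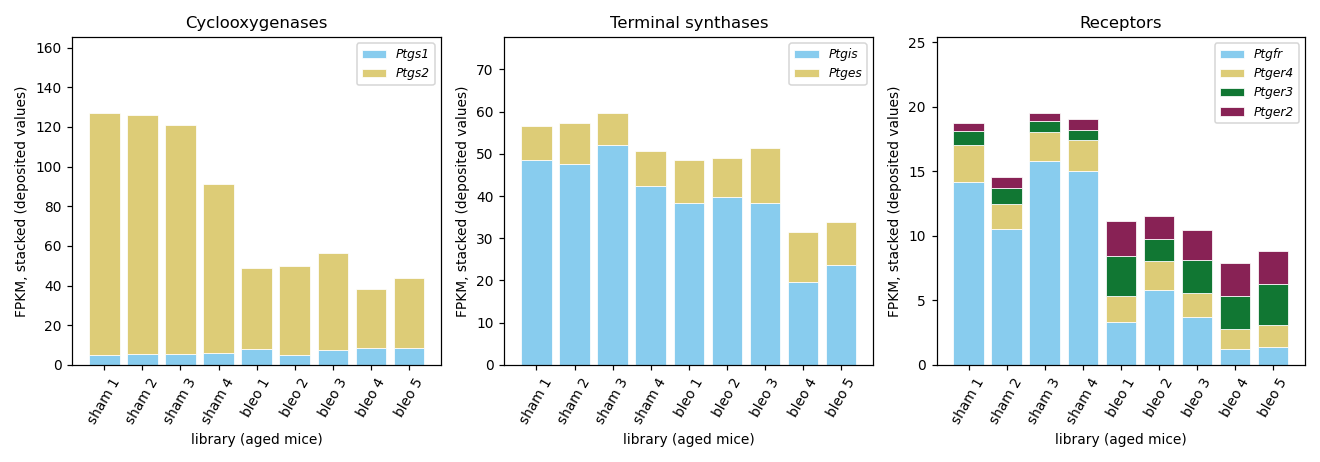
Deposited FPKM of the cyclooxygenases, terminal synthases and receptors, stacked for each library on linear axes that start at 0. The cyclooxygenase bars are nearly all Ptgs2, and the receptor bars change from mostly Ptgfr (72.0% to 80.8% in aged sham) to a mixture in which Ptgfr is 15.4% to 50.7%.

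Hpgd (ENSMUSG00000031613, chromosome 8, 56294552 to 56321046) was at 7.26, 6.72, 5.93 and 7.62 CPM in aged sham and at 3.09, 3.87, 5.84, 2.74 and 3.64 CPM in aged bleo. The groups did not overlap, although aged bleo 3 came within 0.1 CPM of aged sham 3. The mean fell from 6.88 ± 0.732 CPM (SD, n = 4) to 3.84 ± 1.21 CPM (SD, n = 5), a 1.80-fold fall (log2 fold change -0.84, standard error 0.21, FDR 0.0152). On the FPKM scale it lay above Ptger3 and Ptger2 in aged sham, at 1.68 ± 0.157 FPKM, and below both in aged bleo, at 0.955 ± 0.276 FPKM, with no overlap of the ranges in either group.

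**Figure D4:**
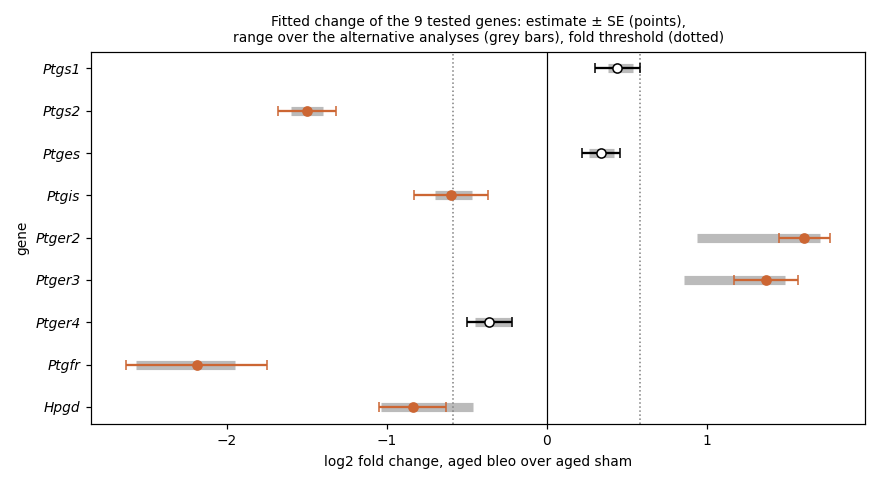
Log2 fold change of aged bleo over aged sham for the 9 tested genes, with its standard error (points and thin bars) and the range over 21 alternative analyses (grey bars). Filled points passed both thresholds, and dotted lines mark the fold threshold of 1.5. Ptgfr is lowest at -2.19 and Ptger2 highest at 1.61, and the grey bars of Ptgis and Hpgd cross the fold threshold.

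Around these genes, 47 others of the prostanoid pathway were looked up in 7 lists, of which 45 were tested, 7 rose and 5 fell, with a median log2 fold change of 0.01. Of all genes tested, 23.8% were called in either direction, a share close to that of these lists, which are therefore read gene by gene. Of 5 tested genes of arachidonate release, Pla2g4a, the cytosolic phospholipase that feeds the cyclooxygenases, fell from 137 ± 14.6 CPM (SD, n = 4) to 55.8 ± 14.5 CPM (SD, n = 5), without overlap (log2 fold change -1.29, standard error 0.19, FDR 0.00132). The secreted phospholipase gene Pla2g5 was called higher at a mean of 0.757 and 1.84 CPM (log2 fold change 1.27, FDR 0.0553). Of 6 other synthases, Tbxas1 (thromboxane synthase) rose from 2.22 ± 0.763 to 6.48 ± 3.25 CPM (log2 fold change 1.55, FDR 0.0134). Hipk2, which overlaps Tbxas1, was called higher as well (log2 fold change 0.71, FDR 0.00534). Hpgds, the hematopoietic prostaglandin D synthase, was called higher at 0.875 and 2.19 CPM (log2 fold change 1.32, FDR 0.0734). Of 4 other receptors tested, Ptgdr2, a prostaglandin D2 receptor, was called higher at 0.361 and 0.641 CPM (log2 fold change 0.83, FDR 0.0618).

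Tbxas1, Hpgds and Ptgdr2 were highest in aged bleo 4 and aged bleo 5, and these are genes that macrophages, mast cells or lymphocytes are known to express. The macrophage list had 5 of 8 genes called higher and a summed level of 168 to 308 CPM in aged sham and 520.0 to 1602 CPM in aged bleo, also highest in aged bleo 4 and 5. The pan-leukocyte list had 1 of 5 genes called higher and summed to 89.4 to 327 CPM and 90.9 to 508 CPM, highest in aged sham 4 and aged bleo 4. The mast cell list had 3 of 4 tested genes called higher, and it summed to 49.1 to 198 CPM and 44.8 to 252 CPM. Most of that sum was Hdc, at means of 95.7 and 94.7 CPM and not called (log2 fold change -0.01). The genes called were Cpa3 (means 2.08 and 5.79 CPM), Ms4a2 (0.148 and 5.31 CPM) and Fcer1a (0.0180 and 1.14 CPM). The protease genes Mcpt4, Tpsb2 and Tpsab1 had too few counts to be tested. None of the lists had a gene at 0 in all libraries. The part of these cells in the levels of Tbxas1, Hpgds and Ptgdr2, or of Ptgs1, which macrophages and mast cells also express, was not tested.

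The prostaglandin transporter gene Slco2a1 had the largest change of the pathway lists. It was at 8.18, 5.03, 4.86 and 5.20 CPM in aged sham and at 124, 63.9, 85.7, 129.6 and 142 CPM in aged bleo. Each aged bleo library was several times above each aged sham library, and the mean went from 5.82 ± 1.58 CPM (SD, n = 4) to 109 ± 32.8 CPM (SD, n = 5) (log2 fold change 4.23, standard error 0.30, FDR 2.95e-05). Slco2a1 carries prostaglandins into cells, and endothelium is a known site of it. The endothelial list, with 1 gene called higher and 1 lower of 6 tested, overlapped between the groups once Tek was left out, as given above, and its part in the level of Slco2a1 was not tested. The other 4 genes of transport and breakdown (Abcc4, Ptgr1, Ptgr2 and Cbr1) had log2 fold changes between -0.22 and 0.12 and were not called. The lipoxygenase branch, which makes leukotrienes from the same arachidonic acid, had 0 of 6 genes called in edgeR's test, with 1 at an unadjusted p under 0.05, and 0 with DESeq2 or limma, although Alox15 was called higher without aged bleo 1 (log2 fold change 1.36, FDR 0.0484).

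Among 11 inducers and regulators of Ptgs2, Zfp36, whose protein speeds the decay of Ptgs2 and cytokine messages, fell from 3252 ± 321 CPM (SD, n = 4) to 1231 ± 469 CPM (SD, n = 5) (log2 fold change -1.40, standard error 0.28, FDR 0.00543). Il1a, an inducer of Ptgs2, rose from 1.60 ± 0.405 to 4.00 ± 1.03 CPM, without overlap (log2 fold change 1.32, FDR 0.00456), and Gm14023, which overlaps it, rose as well (log2 fold change 1.54, FDR 0.00218). Il1b was at 257 ± 202 and 127 ± 137 CPM and did not pass (log2 fold change -1.02, FDR 0.307), and it was called lower without aged bleo 4 (log2 fold change -1.95, FDR 0.0271). Rela (-0.47, FDR 0.0155) and Nfkbia (-0.52, FDR 0.0334) were lower without overlap but did not pass the fold threshold. At the FDR threshold alone, 2 of the 11 genes were higher and 3 lower, a share near the 44.8% of all genes tested. Among 8 cyclic AMP response genes, Areg, an epidermal growth factor receptor ligand, rose from 0.181 to 0.667 CPM in aged sham to 3.99 to 9.95 CPM in aged bleo (log2 fold change 4.14, FDR 0.000154). Dusp1, an immediate early phosphatase, fell (log2 fold change -0.86, FDR 0.00493), and Crem (-0.60, FDR 0.0172) and the clock gene Per1 (-0.61, FDR 0.056) were called lower.

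Of these 12 calls, those of Pla2g5, Hpgds, Ptgdr2, Crem and Per1 depended on single libraries. The Pla2g5 call was lost without aged sham 2 or 3 or aged bleo 1 or 5 (log2 fold change 1.02 to 1.21), that of Hpgds without aged sham 1, 3 or 4 or aged bleo 4 or 5 (1.04 to 1.38), and that of Ptgdr2 without aged sham 2, 3 or 4 or aged bleo 4 or 5 (0.66 to 0.78). That of Crem was lost without aged sham 2 or aged bleo 1, 2 or 5 (-0.58 to -0.51), and that of Per1 without aged sham 1, 3 or 4 or aged bleo 1 or 5 (-0.62 to -0.50). Slco2a1, Areg, Tbxas1, Il1a, Pla2g4a, Zfp36 and Dusp1 were called with any 1 library left out. Other genes, not called over all libraries, were called with a library left out: Tnf (1.16) and Tbxa2r (-0.69) without aged bleo 1, Nfkbia (-0.62) without aged bleo 3, Pla2g2d (-0.64) without aged sham 3 or aged bleo 4, and Pde4b (-0.65 to -0.60) without aged sham 2 or 4 or aged bleo 2, 3 or 4.

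**Figure D5:**
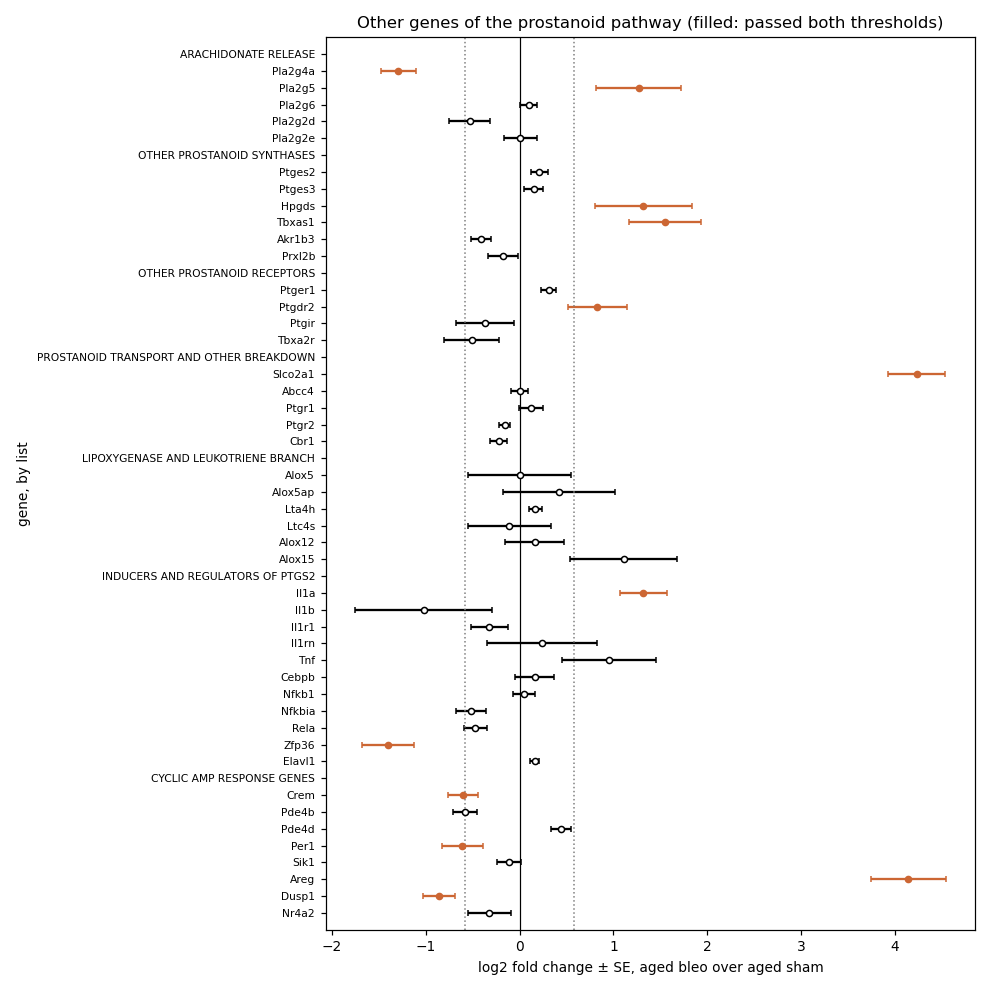
Log2 fold change ± standard error of the 45 other pathway genes tested, grouped by list, with filled points for genes that passed both thresholds and dotted lines at a fold change of 1.5. Slco2a1 (4.23) and Areg (4.14) lie far to the right, and the Pla2g4a (-1.29) and Zfp36 (-1.40) points lie farthest to the left among the calls.

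The sorted cells carried fibroblast markers, with a list of 7 genes summing to 24480 to 30223 CPM in aged sham and 54367 to 71782 CPM in aged bleo. Of these, Col1a1, Col1a2 and Col3a1 were called higher and Dcn and Tcf21 lower. Epcam, the epithelial gate marker, was at means of 0.592 and 0.667 CPM. The endothelial gate gene Pecam1 (CD31) had means of 6.12 and 4.34 CPM. Ptprc, the leukocyte gate gene (CD45), was clearly detected, with a mean of 86.9 CPM for the aged sham group and 64.9 CPM for aged bleo. Its peaks were 168 CPM (aged sham 4) and 183 CPM (aged bleo 4), and it was not called (log2 fold change -0.42, FDR 0.643). The part of leukocytes in the levels of the prostaglandin genes was not tested. The neutrophil list summed to 152 to 936 CPM and 83.2 to 841 CPM with 0 of 6 tested genes called or at an unadjusted p under 0.05 in edgeR's test and 0 called with DESeq2, the epithelial list had 1 gene called higher and 1 lower of 8, the mesothelial list 0 of 5 called or at an unadjusted p under 0.05, and 1 called with DESeq2, the smooth muscle and pericyte list 1 higher and 2 lower of 7, and the megakaryocyte and platelet list 1 lower of 4 tested. Total counts were 49921946 to 62370512 in aged sham and 53833507 to 68260600 in aged bleo.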

How the data were processed

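Poly-A RNA libraries (TruSeq RNA kit, not stranded) of 4 aged sham and 5 aged bleo mice were sequenced. The authors deposited raw gene counts, made with STAR 2.5.2b and featureCounts on mm10/GRCm38 per the labels, and FPKM values. The strand setting of the counting is not given in the sources used here. The deposited counts were tested with edgeR 4.0.16 in R 4.3.3 (TMM normalization, quasi-likelihood test, Benjamini-Hochberg adjustment over all genes tested), with genes of average count at least 25, after simulated data had been used to check the script. The count minimum and both thresholds (FDR under 0.10, fold change over 1.5) are those of the study, which used a moderated test. CPM are TMM-normalized. FPKM served to compare levels between genes, for sums over genes and in some of the limma alternatives. Alternatives were DESeq2 1.42.0, limma 3.58.1 on log2 CPM and on log2(FPKM + 0.1) or log2(FPKM + 1), RLE or plain library size, other count filters, a robust fit, a replicate block, a term for the last number of the library name, stricter thresholds and leaving out libraries. The 10 genes and all lists were chosen with earlier results of these data known. Other named genes were those overlapping or beside a member, and those most like a member in their deviation from the group mean. Replicates were labelled as separate samples, and p-values measure the spread between these samples. In all pairs of libraries of a group the counts differed by more than sampling noise. Motifs were matched in RefSeq promoter windows.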

Additional observations from a re-analysis of the deposited data

Results flagged for a closer look

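Ptgs1 in aged bleo 2 was at 47.9 CPM, far below the other aged bleo libraries, the nearest of which had 69.5 CPM. The gap to the nearest library was 0.771 of the range of the group, above Dixon's 95% critical value of 0.71 for 5 samples. Of 22 groups examined this was the 1 that stood out, and chance gives about 1 in 20. In aged bleo 2, Ptger2 and Ptger3 were also the lowest of their group and Ptgfr the highest.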

How the results depend on the processing

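None of the 9 tested genes changed direction under any alternative. The calls of Ptgs1, Ptgs2, Ptges, Ptger2, Ptger3 and Ptgfr held, or stayed absent, under 21 alternatives, the term for the library name set aside. With limma on log2(FPKM + 1), 960 of all genes were called higher and 825 lower, and 5 pathway genes. With the last number of the library name as a term, 3153 were called higher and 3241 lower, and Ptger4 was called lower (-0.71). That number is 4 in all aged sham libraries and in aged bleo 4 alone of its group, so this fit sets 1 aged bleo library against aged sham and says nothing about stability. What the number stands for is not stated. Under stricter thresholds (FDR under 0.05, fold change over 2), 1224 were called higher and 934 lower, with 2 of the 10 genes lower and 6 pathway genes. Hpgd lost its call there and on log2(FPKM + 1), at -0.46. Ptgis also lost its call without aged sham 4 and aged bleo 4 (-0.52). Over single libraries left out, 1876 to 2314 genes were called higher and 1639 to 2283 lower, 2 of the 10 higher and 3 to 4 lower, and 7 to 14 pathway genes, fewest without aged bleo 5. The log2 ratio of Ptgs2 to Ptgs1 then differed by -2.12 to -1.78. The replicate numbers did not pair the mice (correlations of deviations 0.0922, 0.0623, -0.13 and 0.326, and 1 of 4 aged sham libraries was closest to its own number). With the replicate block, 1822 genes were called higher and 1714 lower, and Ptgis (-0.57), Hpgds, Ptgdr2 and Per1 lost their calls and Il1b (-0.88) was called lower. The cause of these changes was not tested. Ptgds was too shallow to test.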

Other observations

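Within the groups, some of the 10 genes varied together over the 9 libraries. After subtracting each group's mean log2 CPM, Ptgis and Ptgfr had a Pearson's r of 0.922, Ptgis and Ptgs2 0.866, Ptgs1 and Ptger2 0.856, and Ptgfr and Ptger4 0.818. These are descriptions over 9 libraries. Aged bleo 4 and 5 were the lowest aged bleo libraries in each of Ptgs2, Ptgis, Ptger4 and Ptgfr. The tested genes most like a member by this measure were Slc25a25 (0.987), Ptpn11 (0.986) and Bmp3 (0.982) for Ptgs2, Rgma (0.994), Lrch1 (0.989) and St8sia2 (0.989) for Ptgis, and Srpx (0.995), Akap12 (0.995) and Gldc (0.992) for Ptgfr. For Ptger2 they began with Vps45 (0.968), for Ptger3 with Tmem200a (0.960), for Ptger4 with Amh (0.974), for Ptgs1 with Ddc (0.984), for Hpgd with Gbp11 (0.958) and for Ptges with Pigv (0.899).

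Ptgs2os2, a more distant transcript on the strand opposite to Ptgs2, lies 50815 bases beyond the gene. It was also called lower (log2 fold change -1.45, standard error 0.41, FDR 0.0229). Its range was 2.68 to 6.83 CPM in aged sham against 0.750 to 2.84 CPM in aged bleo. The groups overlapped through aged bleo 4.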
